A study of Mus musculus with 6 samples.

Results

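The solute carrier 16 family, whose genes have symbols that start with Slc16a, encodes the monocarboxylate transporters. Its probe sets were taken by symbol from the platform annotation, which named 7 of 12393 measured genes, each with 1 of the 20380 probe sets that carry 1 symbol: Slc16a1, Slc16a3, Slc16a4, Slc16a6, Slc16a7, Slc16a8 and Slc16a11. Other genes of the family, Slc16a10 among them, were not analysed here.

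The livers came from 3 wild-type C57 mice that received an adenoviral vector for TFEB, a transcription factor of lysosomal genes, and from 3 wild-type C57 mice that were not injected. All mice were 1 month old and each liver was read on 1 Affymetrix array. The series title calls the overexpression liver-specific, while the labels used here give neither the promoter of the transgene nor a liver that received an empty vector. Injection, vector and TFEB can therefore not be told apart.

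Monocarboxylate transporters carry small organic acids across membranes. MCT1 (Slc16a1), MCT2 (Slc16a7), MCT3 (Slc16a8) and MCT4 (Slc16a3) move lactate, pyruvate and ketone bodies together with a proton, in the direction that the gradients of both set, and they need an immunoglobulin-like partner protein to reach the cell surface. Liver takes up lactate and pyruvate for glucose synthesis and releases ketone bodies during fasting, so it uses this transport both ways. Other members of the family carry other substrates, such as aromatic amino acids, creatine and carnitine.

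Some facts of the whole data set bear on these genes. Values are log2 expression values, and a difference is the mean of injected minus the mean of not-injected arrays with its standard error (SE) from limma. Correlations between arrays over all probe sets were 0.992 to 0.997 among injected livers, 0.997 to 0.998 among not-injected livers and 0.975 to 0.988 between the groups. The 42 spike-in control probe sets, which read RNA added from outside, differed by -0.57 to -0.06, and in 41 of them all injected arrays were lower than all arrays of not-injected livers. The amounts added are not given in the sources used here, so a batch that coincides with injection cannot be told apart from injection. The probe set of Tfeb read 7.48, 7.78 and 7.46 in injected livers, against 7.51, 7.59 and 7.47 in not-injected livers, a difference of 0.05 ± 0.10 (limma adjusted p = 0.716). Whether its probes can read the transgene is not given in the labels, so this value checks no label.

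Slc16a7 was much higher in injected livers, Slc16a1 was moderately higher, and the groups of the other 5 genes overlapped. Over the family, 2 of 7 genes passed limma at an adjusted p under 0.05, both higher, beside 28.1% of all genes in either direction and 14.2% higher. The groups did not overlap in the same 2 genes, both higher, beside 46.2% of all genes in either direction, 20.1% higher and 26.1% lower. The median difference was 0.07 over the family and -0.05 over all genes. The genes were selected on their symbols, and as a group chosen by their injected minus not-injected values in an earlier pass over these data, so their counts and differences describe them and nothing is read from them.

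**Figure D1:**
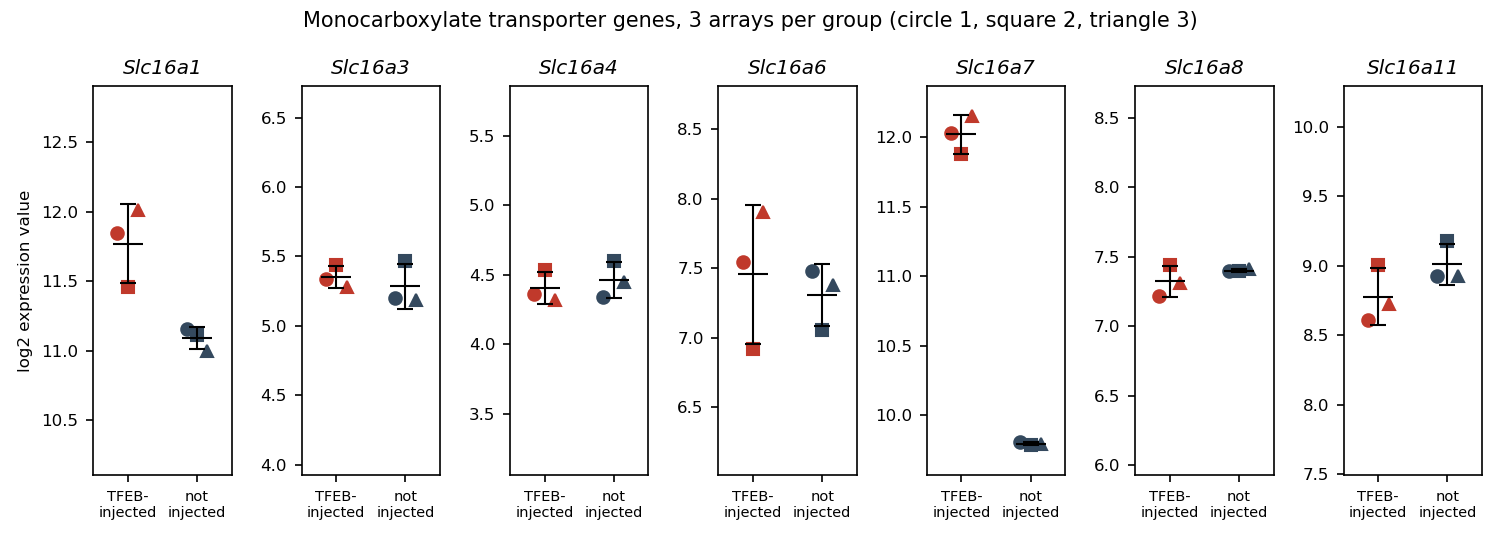
Log2 expression value of each Slc16a gene (vertical axes, all of equal span) in TFEB-injected livers (red, left) and livers that were not injected (dark, right). Symbols mark replicates 1 to 3, and the bars show the mean ± SD of 3 arrays. The groups lie apart for Slc16a7 and Slc16a1 and overlap for the other 5 genes.

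Slc16a7 encodes MCT2, a transporter with a high affinity for pyruvate and lactate. Its probe set read 12.03, 11.88 and 12.16 in injected livers, against 9.81, 9.78 and 9.79 in livers that were not injected. Every injected array stood above every not-injected array, and the closest arrays of opposite groups were still 2.07 apart. The injected livers averaged 12.02 ± 0.14 and the not-injected livers 9.79 ± 0.01 (SD, n = 3 each). The difference of 2.23 ± 0.08 is 4.68-fold, the 76th largest rise among the 12393 genes. It changed little with the arrays used, running from 2.16 without injected replicate 3 to 2.30 without injected replicate 2.

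Slc16a1 encodes MCT1, a widely expressed carrier of lactate, pyruvate and ketone bodies. Its values were 11.85, 11.45 and 12.01 in injected livers, against 11.15, 11.11 and 11.00 in livers that were not injected. The groups lay apart by 0.30 at their closest. Injected replicate 2 stood nearer to the not-injected livers than the other injected arrays did. The means were 11.77 ± 0.29 with injection and 11.09 ± 0.08 without (SD, n = 3 each), a difference of 0.68 ± 0.14 or 1.60-fold. Without injected replicate 2 the difference was 0.84, and without injected replicate 3 it was 0.56.

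TFEB is known to bind E-box elements with the core CACGTG. Promoter sequence from RefSeq (GRCm38.p6) was therefore searched on both strands for CACGTG, which reads the same on both. The search covered the 250 bases before the annotated start, and 5 of the 7 genes had such a window. CACGTG was found in 1 of these 5, that of Slc16a1, beside 6.02% of all 32817 windows. The windows of Slc16a3, Slc16a4, Slc16a8 and Slc16a11 held none. Slc16a6 and Slc16a7 had no entry. A match is a description of the letters and not a bound site. The window of Slc16a1 is shown because this gene was higher and holds the E-box, and that of Nptn, which encodes a relative of the partner protein basigin described further on, because it holds a pair of them. The windows of the partner gene Emb and of the sodium-coupled transporter gene Slc5a8 held none, and the partner gene Bsg had no entry. Slc16a1 lies at chr3:104638414-104638663 and Nptn at chr9:58581990-58582239, both on the plus strand, with the E-box in capitals. It starts 200 bases before the start of Slc16a1, and 137 and 114 bases before that of Nptn.
Slc16a1: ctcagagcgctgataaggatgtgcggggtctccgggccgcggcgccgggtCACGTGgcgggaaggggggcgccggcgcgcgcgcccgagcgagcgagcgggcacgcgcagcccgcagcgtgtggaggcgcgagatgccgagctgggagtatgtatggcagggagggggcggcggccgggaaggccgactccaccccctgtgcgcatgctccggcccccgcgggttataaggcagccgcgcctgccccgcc
Nptn: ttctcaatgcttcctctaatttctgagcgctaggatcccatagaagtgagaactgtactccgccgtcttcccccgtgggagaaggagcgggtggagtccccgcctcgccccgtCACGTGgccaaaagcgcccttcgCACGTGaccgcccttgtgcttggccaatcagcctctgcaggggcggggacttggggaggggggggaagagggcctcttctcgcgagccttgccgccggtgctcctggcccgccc

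Slc16a6 encodes MCT7, which zebrafish liver needs to release beta-hydroxybutyrate. It read 7.54, 6.92 and 7.90 in injected livers, against 7.48, 7.05 and 7.37 in livers that were not injected. Both the lowest and the highest of the 6 values came from injected livers, so the groups overlapped fully. The means were 7.46 ± 0.50 and 7.30 ± 0.22 (SD, n = 3 each), and the difference was 0.15 ± 0.24. It was 0.42 without injected replicate 2 and -0.07 without injected replicate 3, so single livers set its size and its sign.

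Slc16a11, a little-studied member that has been tied to pyruvate transport and, in people, to the risk of type 2 diabetes, had lower values on average in injected livers. It read 8.609, 9.003 and 8.722 there, against 8.923, 9.179 and 8.927 in livers that were not injected. Injected replicate 2 lay within the not-injected range and the other injected arrays lay below it. The difference of -0.23 ± 0.12 did not pass the threshold over all arrays and lay within the range of the spike-in probe sets, whose part in it was not tested. It was -0.34 without injected replicate 2, the one setting in which this gene was called, and -0.15 without injected replicate 1 or not-injected replicate 2.

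Slc16a8 encodes MCT3, known from the retinal pigment epithelium, and is not a gene known for liver. Its values were 7.22, 7.44 and 7.31 in injected livers, against 7.39, 7.39 and 7.41 in livers that were not injected. The injected arrays lay on both sides of the narrow not-injected range, and the difference was -0.08 ± 0.07. It was -0.02 without injected replicate 1 and -0.14 without injected replicate 2.

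Slc16a3 encodes MCT4, the lactate exporter of strongly glycolytic cells such as white muscle. It read 5.34, 5.44 and 5.28 in injected livers, against 5.20, 5.47 and 5.18 in livers that were not injected, with a difference of 0.07 ± 0.09. Leaving out not-injected replicate 3 gave 0.02, and leaving out not-injected replicate 2 gave 0.16. Slc16a4 encodes MCT5, whose substrate is not settled, and read 4.36, 4.54 and 4.32 with injection and 4.34, 4.60 and 4.45 without it, with a difference of -0.06 ± 0.09. Of the 6 values of each gene, 5 for Slc16a3 and 6 for Slc16a4 were under 5.46, the smallest lower quartile among the arrays. Detection calls were not used here, so neither was called absent, and RMA compresses differences at this level. The sign of Slc16a4 was not stable, at 0.008 after a second quantile normalisation, 0.011 without not-injected replicate 2 and -0.12 without injected replicate 2.

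**Figure D2:**
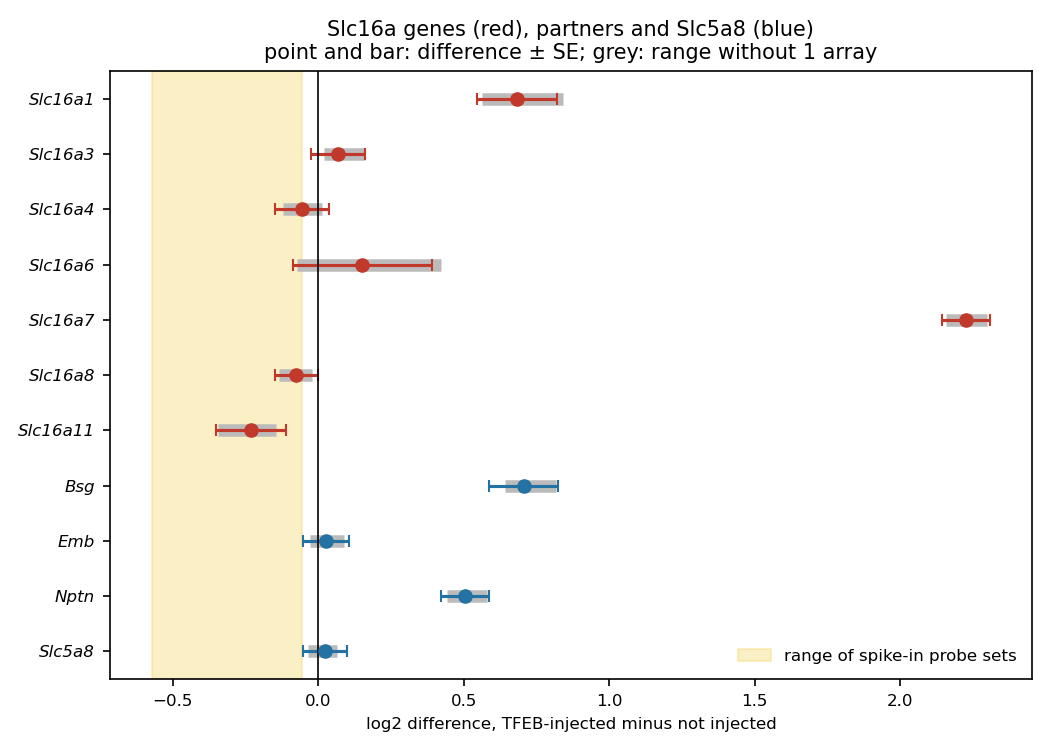
Log2 difference, injected minus not injected, for the 7 Slc16a genes (red), and for the partner genes and Slc5a8 (blue). Points and bars give the difference ± SE over 3 arrays per group, grey bands the range on leaving out 1 array at a time, and the yellow field the range of the spike-in probe sets, -0.57 to -0.06. Slc16a7 at 2.23 stands apart from the rest, and Slc16a1, Bsg and Nptn lie between 0.50 and 0.71.

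Injected replicate 2 was the lowest injected array in Slc16a1, Slc16a6 and Slc16a7 and the highest in the other 4 genes. Over all genes it was the lowest injected array in 33.9% and the highest in 41.9%. The same array was lowest in 65.6% of the 1765 genes called higher and highest in 59.7% of the 1721 genes called lower, so its place in Slc16a1 and Slc16a7 was the common one among genes called higher. In Slc16a7 it stood only 0.15 below injected replicate 1, and in Slc16a1 0.39 below it.

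The partner proteins were measured beside the transporters. Basigin (Bsg) escorts MCT1, MCT3 and MCT4 to the membrane, embigin (Emb) is a preferred partner of MCT2, and neuroplastin (Nptn) belongs to the same family. Bsg read 10.90, 10.58 and 10.93 in injected livers, against 10.27, 10.03 and 9.99 in livers that were not injected. Every injected array was higher, and Bsg rose by 0.71 ± 0.12 or 1.63-fold (limma adjusted p = 0.00505).

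Nptn read 11.16, 10.99 and 11.26 in injected livers and 10.67, 10.64 and 10.59 in livers that were not injected. It rose by 0.50 ± 0.08 or 1.42-fold (limma adjusted p = 0.00487), with the groups apart. Emb read 6.26, 6.39 and 6.33 in injected livers, against 6.19, 6.42 and 6.29 in livers that were not injected, with overlapping groups and a difference of 0.03 ± 0.08 (limma adjusted p = 0.829). Slc5a8, which encodes a sodium-coupled transporter of the same substrates, was under 5.46 on all 6 arrays, with 4.62, 4.51 and 4.53 in injected livers and 4.62, 4.56 and 4.42 in livers that were not injected (difference 0.02 ± 0.08, limma adjusted p = 0.854). In this list of 4 measured genes, 2 were higher, 0 lower and 2 did not pass, with a median difference of 0.27. Over all genes, 14.2% were called higher and 13.9% lower.

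Genes whose values followed Slc16a7 most closely were found by the root mean square (RMS) difference, over the 6 arrays, of log2 values centred on each gene's mean. The closest was Idh2, the mitochondrial isocitrate dehydrogenase, with an RMS difference of 0.08 log2 units. Its values were 11.94, 11.73 and 12.13 in injected livers, against 9.92, 9.73 and 9.74 in livers that were not injected. Hexa, a lysosomal hexosaminidase subunit, followed at 0.11, the cell cycle regulator E2f8 at 0.13, the calcium-binding S100a1 at 0.15 and the monoacylglycerol acyltransferase Mogat2 at 0.16. Their differences between the groups were 2.14, 2.13, 2.25, 2.03 and 2.14 in this order, as the measure requires. With 2 groups of 3 arrays, a like size of difference is most of what the measure sees.

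**Figure D3:**
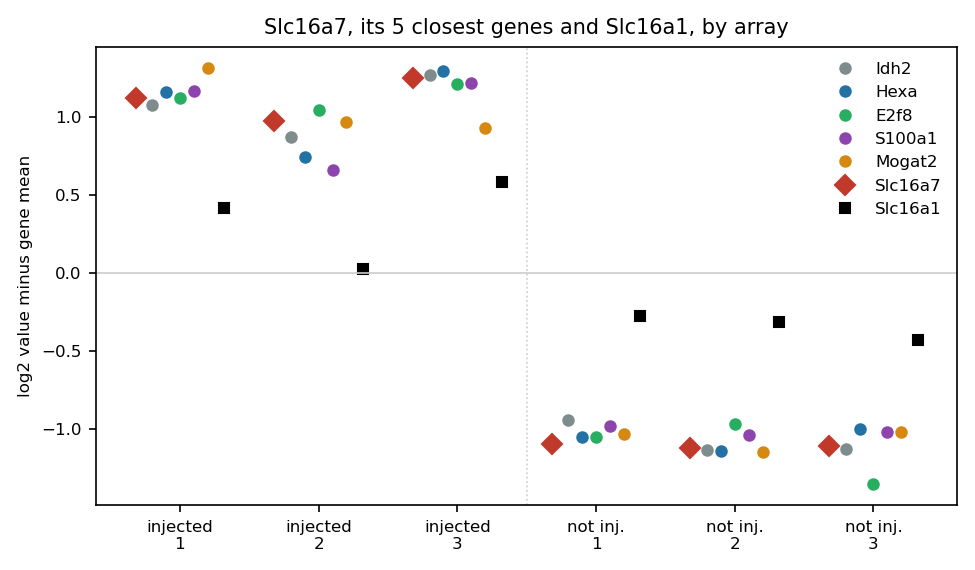
Log2 value minus the gene's mean over 6 arrays (vertical axis) for Slc16a7 (red diamonds), its 5 closest genes (circles) and Slc16a1 (black squares), by array, with injected livers left of the dotted line. Slc16a7 and its closest genes differ by about 2 log2 units between the groups, where Slc16a1 differs by 0.68.

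For Slc16a1 the closest genes were Nhp2, Pitpna and Fam50a, with RMS differences of 0.04, 0.05 and 0.05. The probe set used for Pitpna differed by 0.71 between the groups, and its other probe set by 0.10 (limma adjusted p = 0.289). Nhp2 belongs to a small nucleolar ribonucleoprotein and Pitpna encodes a phosphatidylinositol transfer protein. In all of them injected replicate 2 was the lowest injected array, as in Slc16a1. For Slc16a6 they were Cdc42ep3, Dlg5 and Ccn2, at 0.11, 0.11 and 0.12, which shared its low value in injected replicate 2 and its high value in injected replicate 3.

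Enzymes that make and use the substrates moved in both directions. Of 19 measured genes of lactate and pyruvate metabolism, 6 were higher, 5 lower and 8 did not pass, with a median difference of 0.03. These counts stand beside 14.2% of all genes called higher and 13.9% lower. Ldha, the lactate dehydrogenase subunit that predominates in liver, read 12.35, 12.11 and 12.35 in injected livers, against 12.83, 12.92 and 12.88 in livers that were not injected, and fell by 0.61 ± 0.08 (limma adjusted p = 0.0024). Pdk4, a kinase that switches off pyruvate dehydrogenase, read 13.28, 11.95 and 13.12 in injected livers and 8.98, 8.63 and 8.64 in livers that were not injected, and rose by 4.03 ± 0.32 (limma adjusted p = 0.000278). Pdha1, a subunit of the dehydrogenase that Pdk4 acts on, rose by 0.41 ± 0.07 (limma adjusted p = 0.00459), and Pck1, an enzyme of glucose synthesis from lactate, fell by 1.14 ± 0.14 (limma adjusted p = 0.00169). A second probe set of Pck1 read -0.41, also called, and lay within the range of the spike-in probe sets, -0.57 to -0.06. Among the other genes called lower, Pcx (-0.45) and Me1 (-0.485) lay within that range. Pdk1 (-0.573) lay at its edge and Ldha just outside it. The part of the spike-in shift in these values was not tested. The count of called genes in this list was 7 without injected replicate 3.

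Ketone bodies are the other main substrate of MCT1 and MCT2. Of 4 measured genes of ketone body metabolism, 3 were higher, 0 lower and 1 did not pass, with a median difference of 0.47. The shares over all genes were 14.2% higher and 13.9% lower. Oxct1, which commits ketone bodies to oxidation and is normally low in hepatocytes, read 11.32, 8.39 and 11.80 in injected livers, against 7.51, 7.12 and 6.87 in livers that were not injected. Replicate 2 again stood nearest to the not-injected livers, and the difference was 3.34 ± 0.79 (limma adjusted p = 0.0191). It no longer passed when injected replicate 1 (adjusted p = 0.0672), injected replicate 3 (0.054), not-injected replicate 2 (0.0663) or not-injected replicate 3 (0.0668) was left out. Aacs, which activates acetoacetate in the cytosol, rose by 0.67 ± 0.13 (limma adjusted p = 0.00799), though another of its probe sets read 0.05. Bdh1, an enzyme that interconverts acetoacetate and beta-hydroxybutyrate, rose by 0.26 ± 0.07 (limma adjusted p = 0.0321), a call that was kept without injected replicate 2 and lost without any other single array, and also when its probe sets were averaged (adjusted p = 0.0675). The count of this list was 1 without injected replicate 1, injected replicate 3, not-injected replicate 2 or not-injected replicate 3.

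A further 3 lists were counted, beside shares over all genes of 14.2% called higher and 13.9% lower. Of 13 thyroid hormone genes 0 were higher, 2 lower (Thrsp and Me1) and 11 did not pass, with a median difference of -0.003. The other probe set of Me1 read -0.10 and was not called (limma adjusted p = 0.494). Both values of Me1 lay within the range of the spike-in probe sets, and the part of that shift in them was not tested. The count of the thyroid list was 4 without injected replicate 2. Of 13 genes of aromatic amino acid transport and breakdown 0 were higher and 7 lower, led by the tyrosine aminotransferase Tat (-1.45 ± 0.10, limma adjusted p = 0.000123) and the kynurenine hydroxylase Kmo (-0.80 ± 0.11, limma adjusted p = 0.00211), with a median of -0.24. In this list 1 gene was called higher with the filter on level and 2 without injected replicate 2. Tat and Kmo lay outside the range of the spike-in probe sets, -0.57 to -0.06. In the probe sets used, the other called genes of the list lay within it, and another probe set of Tdo2 read -0.73. The part of the spike-in shift in these values was not tested. Of 11 creatine and carnitine genes 4 were higher and 2 lower, with a median of 0.13. Slc6a8, the creatine transporter, rose by 2.11 ± 0.26 (limma adjusted p = 0.00152; 1.22 in its other probe set), and Gamt, the last enzyme of creatine synthesis, fell by 0.92 ± 0.15 (limma adjusted p = 0.00406). The called genes of the last 2 lists numbered only 2 or 3 each without any one array other than injected replicate 2.

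**Figure D4:**
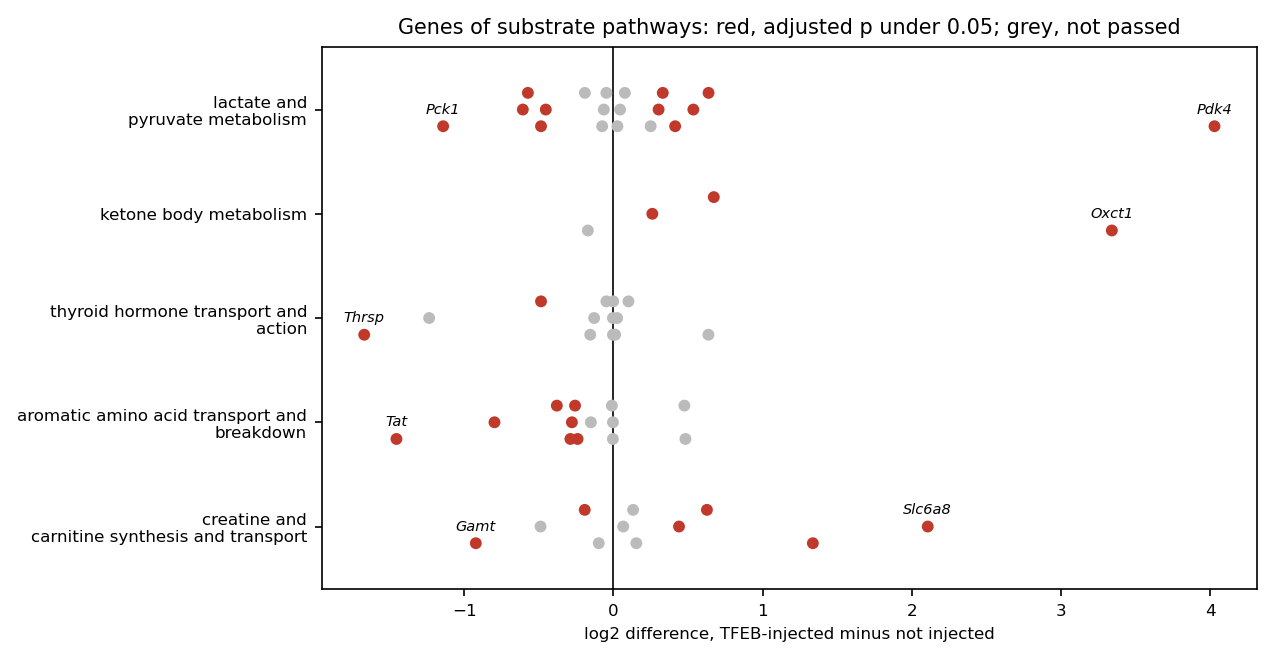
Log2 difference, injected minus not injected, of each measured gene of 5 substrate lists, with genes that passed limma in red and the others in grey. Pdk4 at 4.03 and Oxct1 at 3.34 lie farthest to the right, and all called genes of the aromatic amino acid and thyroid lists lie left of 0.

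Markers of the tissue and of other cells were read beside these results. Their counts stand beside 14.2% of all genes called higher and 13.9% lower. The hepatocyte markers Alb, Apoa1, Ttr, Apob and Cps1 read 13.9 or more on every array, and the remaining marker, Tat, read 11.29, 11.44 and 11.36 in injected livers, against 12.72, 12.73 and 13.01 in livers that were not injected. Of these 6 markers 1 was higher, Apob, and 1 lower, Tat, with summed log2 values of 84.3 to 84.5 in injected livers and 85.8 to 86.1 in livers that were not injected. Tat differed by -1.45 and the other markers by -0.22 to 0.29, so the lower sum comes mainly from Tat. Fewer cells of a type and less RNA per cell cannot be told apart in whole liver. Of 7 markers of sinusoidal endothelium 5 were higher and 0 lower, and their summed log2 values were 62.3 to 63.6 in injected livers, against 57.9 to 58.3 in livers that were not injected. Of 7 Kupffer cell and macrophage markers 2 were higher, Cd68 and Cd5l, and 1 lower, Marco (sums of 67.0 to 68.2 with injection, 64.5 to 67.4 without). Cd68 had the largest difference, 1.74, beside 0.49 for Cd5l and -0.795 for Marco. The remaining markers of this list differed by -0.114 to 0.425. Of 3 erythroid markers 0 were higher and 1 lower, Alas2, with sums of 18.0 to 19.1 in injected livers and 20.2 to 20.5 in livers that were not injected, and Hba-a1 was under 5.46 throughout. Alas2 differed by -1.60, Slc4a1 by -0.26 and Hba-a1 by -0.02, so the lower erythroid sum comes mainly from Alas2. Of 7 stellate cell markers 1 was lower and 0 higher (53.6 to 58.0 with injection, 54.7 to 54.9 without). Of 5 neutrophil markers 1 was higher and 0 lower (28.6 to 31.4 with injection, 28.4 to 29.0 without). Of 5 cholangiocyte, 5 lymphocyte and 5 adipocyte or muscle markers 0 passed limma after adjustment, and 2 of each list had an unadjusted p under 0.05. The part of any of these cells in the values of Slc16a7, Slc16a1, Bsg or Nptn was not tested.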

How the data were processed

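Gene expression in 3 livers injected with a TFEB vector and 3 that were not injected was read on Affymetrix arrays. The authors deposited log2 values per probe set. The submitters' processing notes name affy and RMA, and their versions and any filters are not given in the sources used here. RMA equalises the arrays, so a shift of all transcripts together would not be seen, and it compresses low values. Precision is limited by the number of arrays.

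Of 22690 probe sets, 64 were controls, 20380 carried 1 gene symbol in the platform annotation, 691 several and 1555 none. Only those with 1 symbol were named. Where a gene had several, the one that was highest on average stood for it. Groups were compared with limma (version 3.58.1, R 4.3.3), lmFit and eBayes, two-sided, with Benjamini-Hochberg adjustment over 12393 genes, a call at an adjusted p under 0.05, and no filter or covariate. The code was tested on simulated data. Labels call the arrays biological replicates. Deviations from the group means correlated at 0.14, 0.06 and 0.01 between same-numbered arrays of the groups. Between arrays of different number they correlated at -0.16 to 0.08. These values do not settle whether the numbers pair the arrays. The main fit used no pairing, and a replicate block was run as an alternative setting.

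All measured Slc16a genes and all measured genes of the partner list are named, with up to 4 called genes of the smallest p from each other list. Tdo2 (difference -0.29), Tmlhe (0.44) and Slc22a5 (0.63) also fell under this rule. The other probe sets of Tmlhe and Slc22a5 were not called. The members and lists were chosen with earlier results of these data known. Python 3.11.15 and matplotlib 3.10.9 made the tables and plots.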

Additional observations from a re-analysis of the deposited data

How the results depend on the processing

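Slc16a7 and Slc16a1 were called under all 7 alternative settings and without each array in turn. These were a replicate block, an intensity trend in the variance, a filter that kept the upper part of the genes by level, averaged probe sets, separate probe sets, repeated quantile normalisation and median centring. Under them the difference ran from 2.19 to 2.23 for Slc16a7 and from 0.66 to 0.68 for Slc16a1, and the family's count stayed at 2. Of the family, the filter on level kept only Slc16a1, Slc16a7 and Slc16a11, so the count under it is over fewer genes. The family's count was 2 to 3 on leaving out 1 array. The group was chosen by its injected minus not-injected values in an earlier pass over these data. These calls therefore describe its genes and lend them no support. The family has 1 probe set per gene, so choices among probe sets cannot move the differences of its members. The replicate block, the intensity trend and the filter on level cannot move them either, and act only on the SE and the adjusted p. The ranges above therefore come from the repeated quantile normalisation and the median centring alone. With the replicate block, 3348 genes were called beside 3486 without it, and 4 thyroid hormone genes beside 2, while Bdh1 (adjusted p = 0.0529) and the homogentisate dioxygenase Hgd (adjusted p = 0.0656) did not pass with it. The aromatic amino acid list then had 1 higher and 4 lower genes, beside 0 and 7. On leaving out 1 array, the count was 1973 to 4378 for all genes, 7 to 11 for lactate and pyruvate metabolism, 1 to 3 for ketone bodies, 2 to 4 for thyroid hormone, 2 to 10 for aromatic amino acids and 2 to 6 for creatine and carnitine. It was 2 throughout for the partner list. For all genes it was 4378 without injected replicate 2, 2103 without injected replicate 1, 1973 without not-injected replicate 2 and 2032 without not-injected replicate 3, and the cause was not tested. Differences near 0 changed sign in the same runs, from -0.029 to 0.087 for Emb (-0.004 without injected replicate 2, -0.029 without not-injected replicate 1) and from -0.036 to 0.065 for Slc5a8 (-0.013 without injected replicate 1, -0.036 without not-injected replicate 3).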
